A study of Caenorhabditis elegans with 4 samples.

Results

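The X chromosome of Caenorhabditis elegans carried 530 of the 2714 regions that the authors' combined list assigns to the nuclear hormone receptor NHR-76. Every feature of that list placed on X was taken, with no selection on strength, and the 2184 regions of the autosomes, chromosomes I to V, served for comparison. Binding sites were read by ChIP-seq, the sequencing of DNA that is recovered with a protein by an antibody. The series has 2 ChIP libraries, in which anti-GFP antibodies recovered the tagged protein with its cross-linked DNA, and 2 input libraries of chromatin set aside before the precipitation. All 4 libraries came from hermaphrodites of strain OP203 at larval stage L3, grown at 20 °C and fixed with 2% formaldehyde. The strain combines the unc-119(ed3) mutation with wgIs203, a transgene of unc-119 and of nhr-76 tagged with TY1, EGFP and FLAG. Every library, input included, therefore carries the unc-119 mutation, its rescuing copy and the tagged receptor. The transgene was introduced by bombardment, and the sources used here give neither its site nor its copy number. No strain without the tag was analysed here, so regions recovered without regard to NHR-76 cannot be told apart from its own sites.

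Nuclear hormone receptors are transcription factors that bind DNA through a zinc-finger domain, and many of them are controlled by small lipophilic ligands. The nematode family is greatly expanded, and NHR-76 is known in C. elegans for a role in serotonin-driven fat loss in the intestine. Hermaphrodites carry a pair of X chromosomes, so X and autosomal DNA are present in equal copy number in the input, and a dosage compensation complex lowers transcription from both X chromosomes.

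The deposited values are peak positions on the WormBase WS220 genome with 1 value each, and no read depth. A combined region has a q value from the authors, and a replicate peak has a score whose scale is not stated and differs between the lists. Replicate 1 placed 3891 peaks on X, all 400 bp wide, and replicate 2 placed 4503, all 800 bp wide. These peaks covered 8.48% of the X span in replicate 1 and 16.5% in replicate 2, which bears on every overlap given here. Chromosome I stands apart in the combined list with 93 regions, or 6.18 per Mb, so comparisons with the autosomes were repeated without it. Nothing in the labels ties the replicates to separate cultures, so their differences may be technical. No sequence or gene annotation of WS220 was used, and regions are named by position.

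The X regions did not differ detectably from the autosomal ones in strength, and they were wider than those of chromosomes II to V. There were 29.9 regions per Mb of X, against 26.5 per Mb on the autosomes and 31.0 per Mb on chromosomes II to V alone. Their median q was 0.00145 on X and 0.00162 on the autosomes. A q under 1e-05 was reached by 100 of the 530 X regions (18.9%, exact 95% interval 15.6 to 22.5) and by 371 of the 2184 autosomal regions (16.99%), where the whole list gives 17.4%. This difference did not pass the test (two-sided Fisher's exact test, adjusted p = 0.665 over 13 tests, odds ratio 1.14 with a 95% interval of 0.880 to 1.46). Of the 100 regions of lowest q in the genome, 25 were on X (exact 95% interval 16.9 to 34.7%), and X held 19.5% of the whole list. The X regions together covered 206 kb, or 1.16% of the chromosome, and the autosomal regions covered 0.877% of the autosomes, or 1.01% on chromosomes II to V alone.

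Median width was 342 bp on X, with quartiles of 239 and 475.5 bp. On the autosomes it was 290.5 bp, with quartiles of 200 and 402 bp, and on chromosome I alone it was 385 bp. The X median was above the autosomal one in each class of q. At q under 1e-10 the median was 787.5 bp for 30 X regions and 565 bp for 99 autosomal regions. Between 1e-10 and 1e-05 it was 518 bp on X and 470 bp on the autosomes, and between 1e-05 and 0.001 it was 402.5 bp on X and 348.5 bp on the autosomes. From 0.001 to 0.01, where 296 of the X regions lay, it was 257.5 bp on X and 217 bp on the autosomes. The quartile ranges of X and autosomal widths overlapped in every class. Between 1e-10 and 1e-05 the upper quartile was lower on X, at 630.5 bp against 646 bp on the autosomes.

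**Figure D1:**
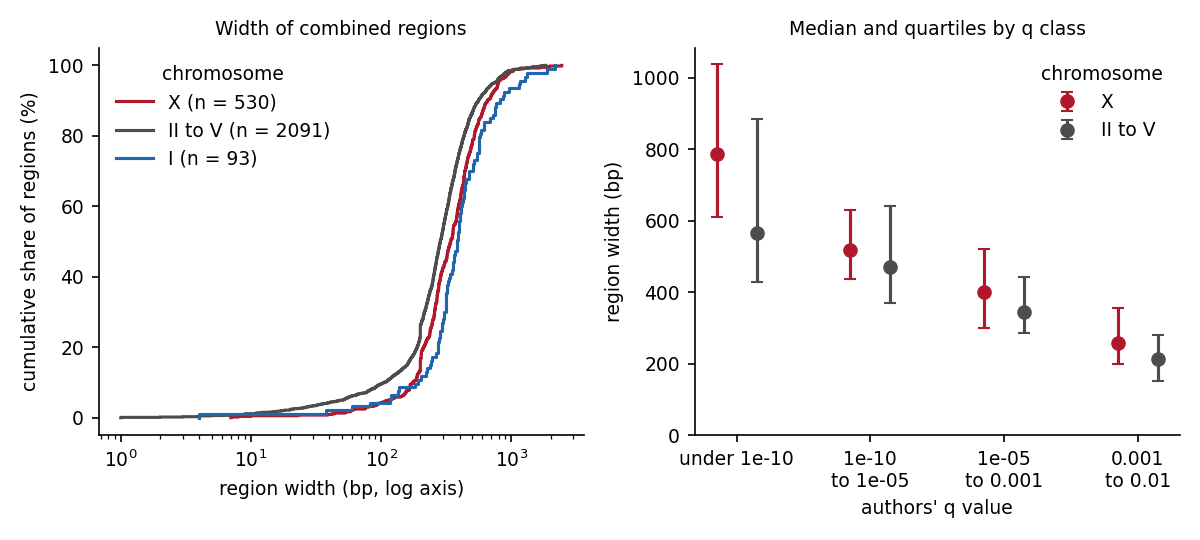
Left, cumulative share of combined regions (%) by width (bp, log axis) for X, chromosomes II to V and chromosome I. Right, median width (points) with quartiles (bars) in 4 classes of q for X and chromosomes II to V; the X median lies above the other in each class, at 787.5 and 565 bp for the lowest q values and at 257.5 and 214 bp for the highest.

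The width difference was tested in 3 ways chosen after the widths had been seen. A region was wider than the median of its own q class in 330 of 530 cases on X (62.3%, exact 95% interval 58.0 to 66.4), against 1026 of 2184 on the autosomes (46.98%, interval 44.9 to 49.1), where the whole list gives 50.0% (Fisher's exact test, adjusted p = 7.97e-10 over 3 tests, odds ratio 1.86). Widths above the 296.5 bp median of the whole list were found for 306 X regions (57.7%) and 1051 autosomal regions (48.1%), again against 50.0% in the whole list (Fisher's exact test, adjusted p = 8.56e-05). Among regions with q under 0.001 alone, where most exceed that width, the shares were 85.0% on X and 81.3% on the autosomes and did not pass (Fisher's exact test, adjusted p = 0.324). Very narrow regions were scarcer on X than on chromosomes II to V. Only 22 X regions (4.15%) were under 100 bp, against 203 autosomal regions (9.29%) and 8.29% of the list (Fisher's exact test, adjusted p = 7.23e-05, odds ratio 0.423). All 22 had q of 0.001 or more, so at q under 0.001 there was no such X region and 2 autosomal ones. On chromosome I, 4 of 93 regions (4.30%) were under 100 bp, a share near that of X. The shares were 7.25% on II, 9.30% on III, 11.6% on IV and 9.62% on V.

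Set against single chromosomes, X regions exceeded the median of their q class more often than those of II (48.0%), III (44.4%), IV (45.0%) and V (47.4%), with adjusted p from 5.23e-08 to 7.40e-06 over 5 tests (Fisher's exact test). They did not differ detectably from the few regions of chromosome I, of which 59 of 93 (63.4%) were wide for their class (Fisher's exact test, adjusted p = 0.908, odds ratio 0.951 with a 95% interval of 0.582 to 1.53). The planned width limit was 1000 bp, with 500 bp as an alternative. A width of at least 500 bp was reached by 120 X regions (22.6%) and 313 autosomal regions (14.3%), where the list gives 16.0% (Fisher's exact test, adjusted p = 2.04e-05, odds ratio 1.75). Among regions with q of 0.001 or more this was not detectable, with 4.73% on X and 3.39% on the autosomes (Fisher's exact test, adjusted p = 0.685). On chromosome I, 28 of 93 regions (30.1%) were at least 500 bp wide, a higher share than on X, and chromosomes II to V gave 13.6% together. The planned test did not pass: at 1000 bp or more the shares were 9 of 530 on X (1.70%) and 36 of 2184 on the autosomes (1.65%), near the 1.66% of the list (Fisher's exact test, adjusted p = 1, odds ratio 1.03 with a 95% interval of 0.434 to 2.20). These tests treat regions as independent, although neighbours on a chromosome cluster.

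Each X region was then looked up in the peak list of each ChIP library. Replicate 1 held a peak, sharing at least 1 bp, at 401 of the 530 X regions (75.7%, exact 95% interval 71.8 to 79.3), where 73.7% of the whole list had one. Replicate 2 held one at 180 (34.0%, interval 29.9 to 38.2), where 34.5% of the whole list had one. The difference between the libraries was large (exact McNemar test, adjusted p = 4.26e-43), with 252 X regions in replicate 1 alone and 31 in replicate 2 alone. Replicate 2 peaks are the wider and the more numerous. With every replicate peak set to 400 bp, replicate 1 held 75.7% of X regions and replicate 2 held 26.8%. With only the strongest peaks of each list, as many as the combined list holds, the shares were 39.2% and 9.81%. The part of peak calling, and the cause of the difference, was not tested. The McNemar test counts regions, treated as independent, and its p holds no spread between libraries, as each list comes from 1 library. Both libraries held 149 X regions (28.1%), against 27.3% of the list, and neither held 98 (18.5%), against 19.1% of the list.

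By the midpoint of each region, 69.2% of X regions lay inside a replicate 1 peak, near the 66.8% of the whole list, where those peaks cover 8.48% of X. For replicate 2 this was 27.2% on X and 28.0% in the whole list, where its peaks cover 16.5% of X.

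X and autosomal regions did not differ detectably in this support. Replicate 1 overlap was 75.7% on X and 73.2% on the autosomes (Fisher's exact test, adjusted p = 0.665, odds ratio 1.14 with a 95% interval of 0.909 to 1.43). Replicate 2 overlap was 34.0% on X and 34.7% on the autosomes (Fisher's exact test, adjusted p = 1, odds ratio 0.969 with an interval of 0.789 to 1.19). For both replicates together the shares were 28.1% on X and 27.2% on the autosomes (Fisher's exact test, adjusted p = 0.959, odds ratio 1.05 with an interval of 0.843 to 1.30).

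Among X regions, support followed strength, much as it did on the autosomes. Of the 100 with q under 1e-05, 93 lay in replicate 1, against 308 of the other 430 (71.6%; Fisher's exact test, adjusted p = 5.31e-06, odds ratio 5.25). In replicate 2 this was 57 of the 100, against 123 of the other 430 (28.6%, Fisher's exact test, adjusted p = 1.05e-06, odds ratio 3.30). The combined list belongs to the same series, and how the replicates entered it is not stated. Its q values and the replicate peaks may therefore rest on the same reads, and these tests do not show independent replication. The autosomal regions with q under 1e-05 gave 92.5% in replicate 1 and 56.1% in replicate 2, close to the 93 and 57 of 100 on X. A q under 1e-10 was reached by 30 X regions (5.66%), where the list gives 4.75%. All 30 had a replicate 1 peak, against 95 of 99 on the autosomes (96.0%), and 21 had a replicate 2 peak (70.0%), against 74 of 99 (74.7%). In the weakest class, from 0.001 to 0.01, 200 of 296 had a replicate 1 peak (67.6%), 70 a replicate 2 peak (23.6%) and 79 neither (26.7%), where the autosomes gave 64.5%, 27.4% and 27.1%. The strongest X region with no peak in either library ran from 11030972 to 11031677, with q = 8.25e-07 (chosen after its values were seen). On X, 3 regions without support had q under 1e-05. All lay between 1e-10 and 1e-05, at 3 of 70 (4.29%), where the autosomes gave 15 of 272 (5.51%). Stronger regions are also wider, which raises the chance that they meet a peak. Median width was 443 bp in regions held by both replicates, 338 bp with replicate 1 alone, 315 bp with replicate 2 alone and 246.5 bp with neither. By midpoint, which removes the width of the region, 83.3% of X regions with q under 1e-10 and 64.9% of those in the weakest class lay in replicate 1 peaks. In replicate 2 peaks lay 18 of 30 and 57 of 296 (19.3%). This last share is not far above the 16.5% of X that replicate 2 peaks cover. On the autosomes the weakest class gave 23.8%, where those peaks cover 16.3%. The share that weak regions would reach by position alone was not computed.

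**Figure D2:**
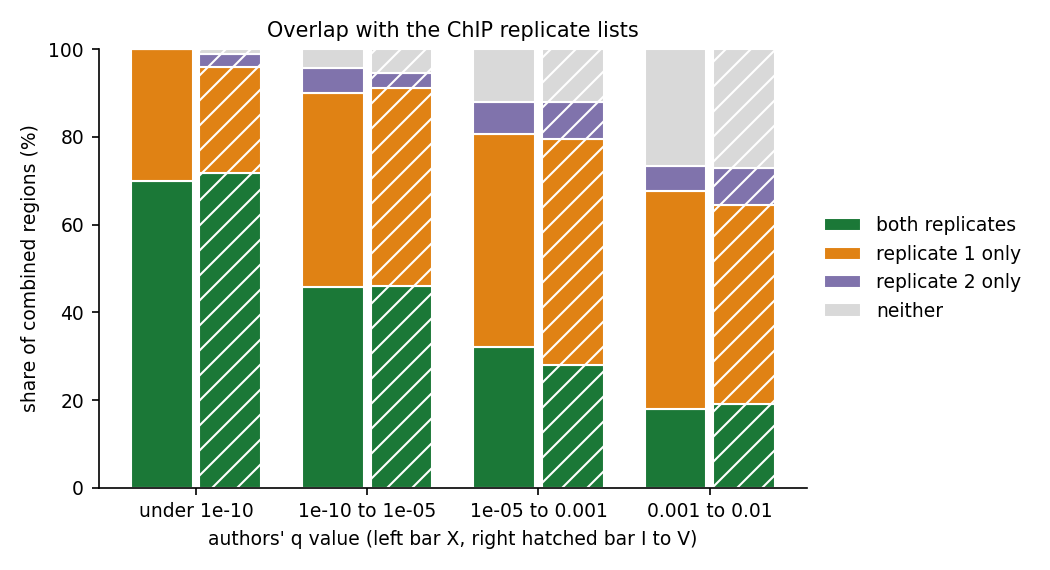
Share of combined regions (%) that overlap a peak of both ChIP replicates, of 1 replicate only or of neither, in 4 classes of the authors' q value; the left bar of each pair is X and the right, hatched bar chromosomes I to V. The share in both replicates falls from 70.0% at the lowest q values to 17.9% at the highest on X, and the autosomal bars follow closely.

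Replicate 1 peaks sat near the middle of the X regions. The best-ranked replicate 1 peak was centred within 200 bp of the region's centre at 354 of 401 regions (88.3%), with a median distance of 70.5 bp. The best-ranked replicate 2 peak was this close at 82 of 180 regions (45.6%), with a median of 261 bp. Among regions with q under 1e-05 the share within 200 bp was 84.9% in replicate 1 and 52.6% in replicate 2. Where both libraries held a region, the centres of their best peaks lay a median of 227 bp apart (quartiles 93 and 404 bp, n = 149). The wider peaks of replicate 2 can meet a region from farther away, so the distances of the 2 libraries are not on equal terms.

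**Figure D3:**
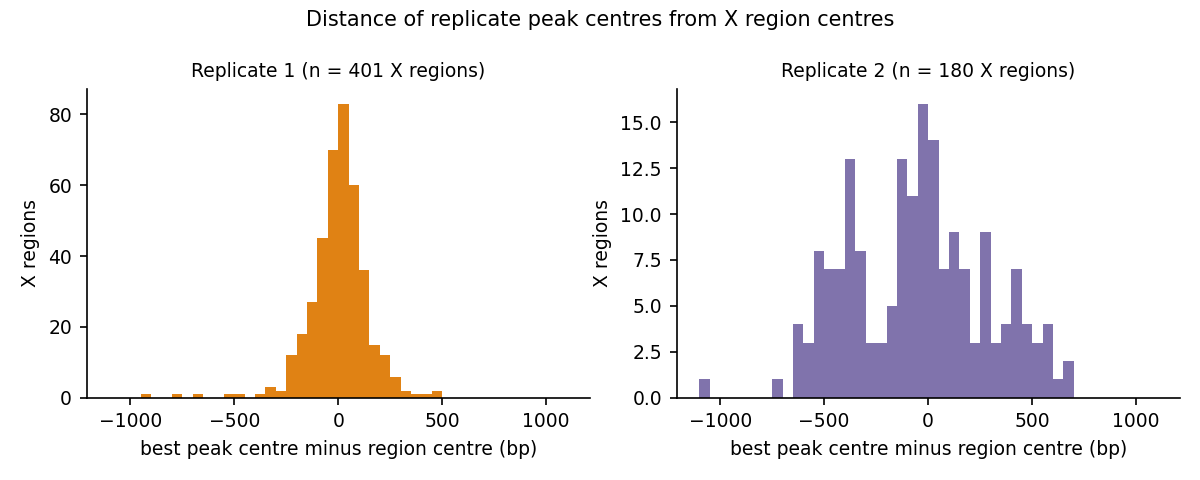
Number of X regions by the distance (bp) from the region's centre to the centre of the best-ranked overlapping peak, for replicate 1 (left, 401 regions) and replicate 2 (right, 180 regions). Replicate 1 forms a single narrow mound around 0, with 88.3% of regions within 200 bp, and replicate 2 spreads over both sides, with 45.6% within 200 bp.

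The X regions of lowest q are given with their replicate values, as the rank of the best overlapping peak among all nuclear peaks of its list. Replicate 1 ranks up to 549 are ties at its highest score, 3.06, and replicate 2 ranks up to 47 are ties at its highest score, 2.12. Ranks within these ties follow the authors' peak number and say nothing of relative strength. All 20 had a replicate 1 peak, 17 of them at that highest score, and 14 had a replicate 2 peak. Widths ran from 361 to 2442 bp with a median of 875.5 bp, and the weakest q of the 20 was 7.35e-13. The 5 widest X regions, of 1174 to 2442 bp, were all among them.

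The strongest X region, from 16929373 to 16931814, was also the widest, with 2442 bp and q = 6.04e-34. It held 3 replicate 1 peaks, the best of score 3.06, and 2 replicate 2 peaks, the best of score 1.01. Its best-ranked replicate 1 peak was centred 913 bp left of the region's middle and its best-ranked replicate 2 peak 250 bp right of it. That replicate 1 peak lies within the ties at the highest score, and the scores of the region's other replicate 1 peaks were not compared. The next, from 11605532 to 11606515 (q = 5.32e-28), had rank 183 in replicate 1 and 1846 in replicate 2.

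The region from 11093546 to 11094596 (q = 4.40e-25) was the sole region of the 20 with the highest score of both lists, at ranks 58 and 1. Over all X regions 3 had both highest scores, and the others, found after their values were seen, ran from 806428 to 807016 and from 14015357 to 14016053. In the region at 11093546 the best peaks were centred 99.5 and 49.5 bp right of the region's middle. The region from 14525319 to 14526231 (q = 1.21e-17) had ranks 28 and 109 and 4 overlapping replicate 2 peaks. The region from 4208474 to 4209647 (q = 1.16e-15) had ranks 42 and 212, and the best peaks were centred 148 bp (replicate 1) and 163 bp (replicate 2) right of its middle. The region from 8035893 to 8036924 (q = 4.54e-23) had ranks 112 and 339. With these 4, the region from 1389284 to 1389977 (q = 5.50e-18), at ranks 1976 and 239, completes the 5 of the 20 that lay within the first 500 peaks of replicate 2.

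Other strong regions had a peak in the list of replicate 1 alone. The region from 10077446 to 10079407 (q = 8.87e-22, 1962 bp) held 4 replicate 1 peaks, the best at rank 158, and no replicate 2 peak. The same held for the region from 14789956 to 14791101 (q = 2.19e-18), with a best replicate 1 rank of 440. The region from 5840950 to 5841523 (q = 5.39e-14) had a replicate 1 rank of 4, within the ties at the highest score, and no replicate 2 peak. Those from 12362715 to 12363501 (q = 6.98e-15), from 16681563 to 16682350 (q = 2.00e-14) and from 11937157 to 11937775 (q = 2.90e-13) had replicate 1 ranks of 285, 53 and 61 and no replicate 2 peak.

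A further set had a replicate 2 partner of low rank. The region from 13349291 to 13350955 (q = 5.28e-16) met a replicate 2 peak of rank 22229, centred 1055.5 bp from its middle. The region from 2996623 to 2997460 (q = 4.05e-15) had ranks 54 and 8689, and that from 3306613 to 3306973 (q = 7.35e-13) had ranks 397 and 8616. The regions from 13700485 to 13701110 (q = 5.70e-19), from 12517220 to 12519124 (q = 4.53e-16) and from 1626873 to 1627480 (q = 7.18e-14) lay between, at replicate 2 ranks of 2566, 2887 and 1937 and replicate 1 ranks of 65, 166 and 87. In the region from 16056157 to 16056852 (q = 2.19e-17) the order was turned round, with rank 12483 in replicate 1 (score 1.04) and 2331 in replicate 2 (score 0.540).

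**Figure D4:**
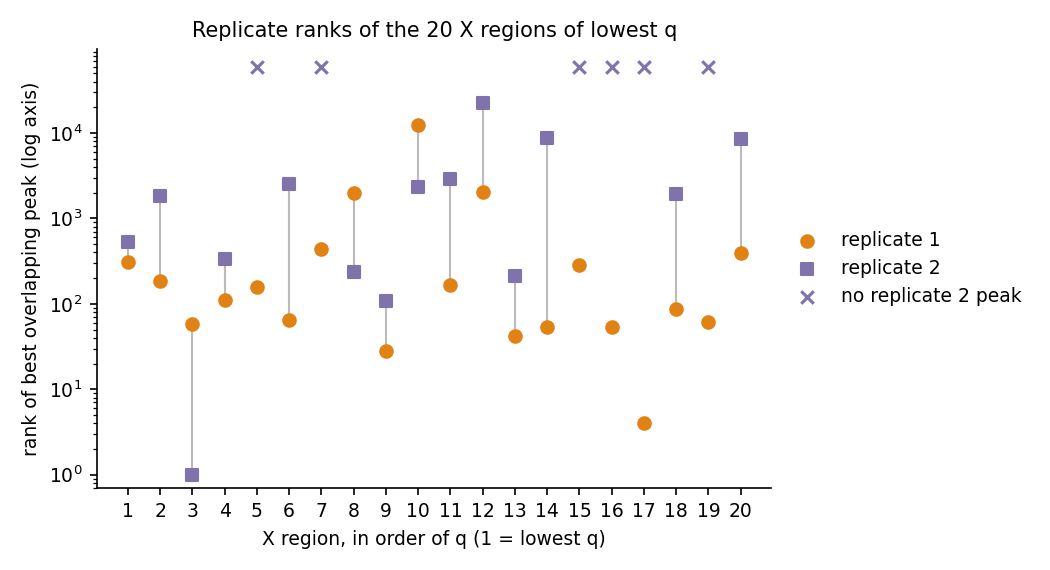
Rank of the best overlapping peak in replicate 1 (circles) and replicate 2 (squares) on a log axis for the 20 X regions of lowest q, in order of q from the left; crosses at the top mark the 6 regions with no replicate 2 peak. Replicate 1 ranks are better than replicate 2 ranks in most of the 14 regions that have both, and ranks up to 549 in replicate 1 and 47 in replicate 2 are ties.

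Across X regions the rank relation of the combined q to the replicate scores was moderate in replicate 1 and weak in replicate 2. Pearson's r did not keep that order. Spearman's rho between −log10 q and the best score was 0.46 (Pearson's r 0.32, n = 401) in replicate 1 and 0.21 (r 0.34, n = 180) in replicate 2. Between the 2 replicate scores it was 0.06 (r 0.10, n = 149). Between −log10 q and width it was 0.68 (r 0.72, n = 530). These are descriptions across regions of the same libraries, and q and width come from the same calls.

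Seen from the replicate lists, X peaks that coincided with a combined region ranked better than the rest. In replicate 1, 497 of 3891 X peaks met a region (12.8%, against 10.97% on the autosomes), with a median rank of 3225, and the 3394 others had a median rank of 11176. In replicate 2, 264 of 4503 X peaks met a region (5.86%, against 5.12% on the autosomes), with a median rank of 8916.5, and the 4239 others had a median rank of 12938. The autosomal shares include chromosome I, which held 3286 replicate 1 peaks and 3842 replicate 2 peaks but 93 regions. Without it, X was above the autosomes in some rank classes and below them in others, as given below. Of the X peaks with the highest replicate 1 score, 94 of 111 (84.7%) met a combined region, against 355 of 438 on the autosomes (81.1%) and 81.8% in all (Fisher's exact test, adjusted p = 0.765, odds ratio 1.29 with a 95% interval of 0.718 to 2.44). For the highest replicate 2 score this was 5 of 10 on X and 17 of 37 on the autosomes (45.9%), against 46.8% in all (Fisher's exact test, adjusted p = 1). With so few peaks the odds ratio of 1.17 has a 95% interval of 0.227 to 6.07. In the 4 rank classes of each library, examined after the values were seen, the widest gap was at replicate 2 ranks 1 to 500, with 28 of 94 peaks on X (29.8%) and 75 of 406 on the autosomes (18.5%) in the combined list. It did not pass the test (Fisher's exact test, adjusted p = 0.0911 over 8 tests), and the same adjusted p of 0.0911 was found at replicate 1 ranks 501 to 2500 (32.5% on X and 26.3% on the autosomes). Without chromosome I the autosomal shares were 20.7% at replicate 2 ranks 1 to 500 and 31.0% at replicate 1 ranks 501 to 2500. The other replicate 1 classes were then lower on X, at 85.8% against 90.2%, 12.9% against 13.2% and 4.95% against 5.83%. The other replicate 2 classes gave 9.86% on X against 10.1%, 5.33% against 6.44% and 4.75% against 4.57%.

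Some X peaks with the highest score of their library had no combined region. In replicate 1 these are equal in score, and 5 are named by the order of the authors' peak numbers. The peak from 12595770 to 12596169 had no replicate 2 peak and lay 31628 bp from the nearest region. The peak from 3116163 to 3116562 met a replicate 2 peak of rank 1610 and lay 10 bp from a combined region. The other 3 start at 12230129, 974750 and 13932020. In replicate 2, 5 of the 10 X peaks of highest score, also equal in score, had no combined region. The one from 9552458 to 9553257 met a replicate 1 peak of rank 1262. Those starting at 17216153, 15417415, 15417181 and 11538165 met no replicate 1 peak, and those starting at 15417415 and 15417181 overlap each other.

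Regions were not spread evenly along X. The 6 windows of 1 Mb from the left end to 6 Mb held 17 to 25 regions each, 22.2 per Mb on average. The 10 windows from 6 to 16 Mb held 17 to 47, with 35.3 per Mb on average, and the window from 16 to 17 Mb held 25. The richest window, from 6 to 7 Mb, held 47 regions, of which 12 had q under 1e-05. The poorest full windows held 17 each, at 0 to 1 Mb and, within the rich stretch, at 9 to 10 Mb. This split at 6 Mb was chosen after the counts were seen and is a description.

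The replicate lists were more even than the combined list. Replicate 1 had 203.5 peaks per Mb in the first 6 Mb and 228.1 per Mb from 6 to 16 Mb, and replicate 2 had 259.8 and 252.1. Per 100 replicate 1 peaks there were 20.1 combined regions in the window from 6 to 7 Mb and 8.72 in that from 9 to 10 Mb. In the middle 60% of the chromosome lay 65.7% of the X regions and 68.7% of the autosomal regions, against 68.1% in all (Fisher's exact test, adjusted p = 0.631, odds ratio 0.872 with a 95% interval of 0.710 to 1.07). Support by both replicates was found at 94 of 348 X regions in the middle (27.0%) and 55 of 182 toward the ends (30.2%; Fisher's exact test, adjusted p = 0.774, odds ratio 0.855 with an interval of 0.566 to 1.30).

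**Figure D5:**
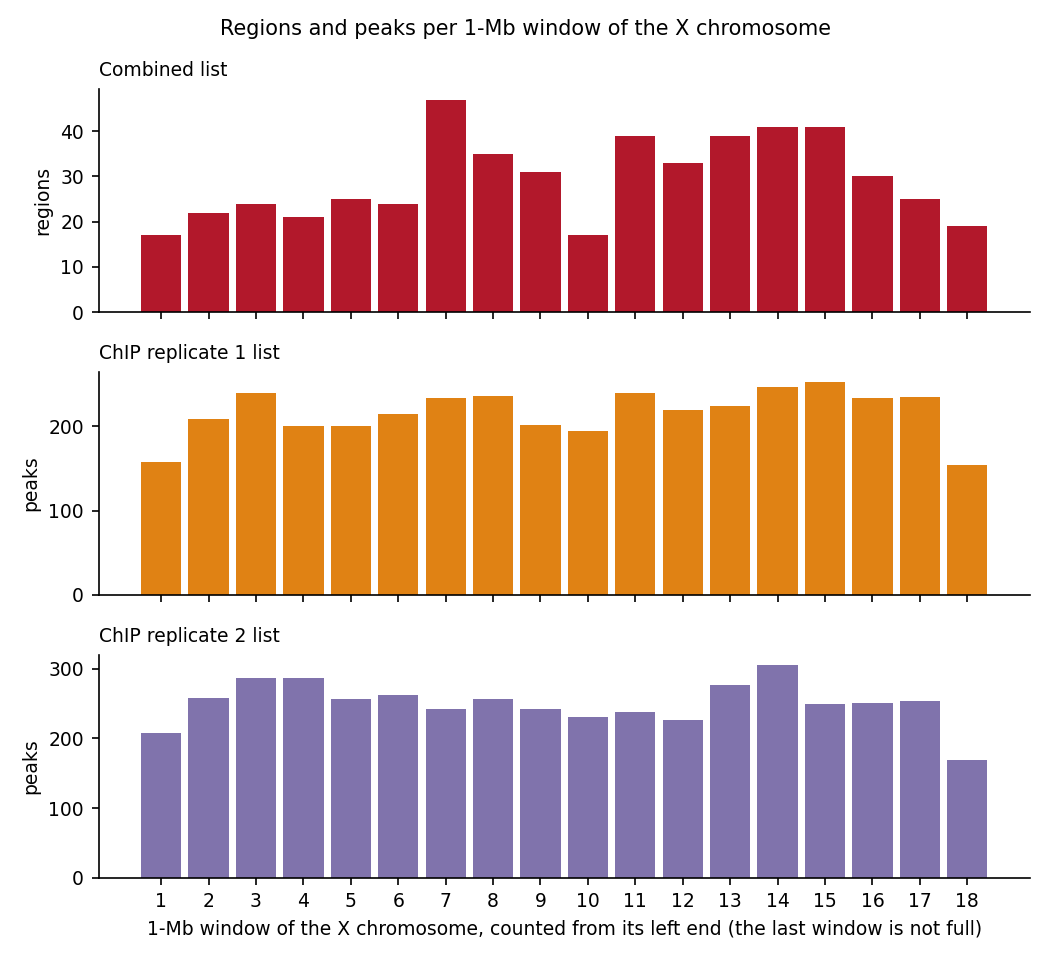
Number of combined regions (top), replicate 1 peaks (middle) and replicate 2 peaks (bottom) in 1-Mb windows of the X chromosome, counted from the left end. Combined regions rise to 47 in the 7th window and drop to 17 in the 10th, whereas replicate peaks in full windows stay between 158 and 252 in replicate 1 and between 208 and 305 in replicate 2.

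Regions also lay in close groups. The median gap from an X region to its nearest neighbour was 7759 bp, and 145 of 530 (27.4%) had a neighbour within 2000 bp, against 595 of 2184 on the autosomes (27.2%) and 27.3% in all (Fisher's exact test, adjusted p = 1, odds ratio 1.01 with a 95% interval of 0.807 to 1.25). Joined at gaps of up to 2000 bp, the X regions formed 385 single regions, 44 pairs, 6 groups of 3, 5 groups of 4, 1 group of 5 and 2 groups of 7.

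The largest groups had 7 regions each. One ran over 11634 bp from 13349291 to 13360924, and all 7 of its regions had a replicate 1 peak and 4 a replicate 2 peak. Its lowest q was the 5.28e-16 of its leftmost region. The highest replicate 2 score fell on another region, from 13354666 to 13355470 (q = 4.63e-09), at rank 12, with rank 1406 in replicate 1. The highest replicate 1 score was shared by 3 other members, from 13353403 to 13353862 (q = 5.91e-11), from 13356281 to 13356859 (q = 3.56e-11) and from 13358468 to 13358990 (q = 1.01e-06).

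The other group of 7 ran over 10211 bp from 6318876 to 6329086, in the richest window. Its regions were 190 to 548 bp wide, with a lowest q of 2.01e-09, and 6 had a replicate 1 peak and 3 a replicate 2 peak. A group of 5 from 14557306 to 14563151 had a lowest q of 1.10e-08 in a region from 14560140 to 14560596, which had rank 160 in replicate 2 and no replicate 1 peak. Groups of 4 lay from 7985885 to 7990657 (lowest q = 5.57e-08) and from 8473594 to 8477786 (lowest q = 1.46e-10), and the second of these had no replicate 2 peak at any region. The leftmost region of the group at 7985885 is the sole X region with a remark in the file that its structure changed when coordinates were moved between builds. At the other extreme, the longest stretch of X without a region ran for 260.4 kb from 1881068 to 2141515, and 31 replicate 1 peaks and 73 replicate 2 peaks lay inside it.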

How the data were processed

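The authors deposited peak intervals on WormBase WS220, per the file headers. In the combined list, named PeakSeq in its source field, the deposited value is a q-value for each region. In the 2 replicate lists, whose source field names SPP via IDR (irreproducible discovery rate), the authors deposited a score of unstated scale for each peak. The sources used here give no program versions or thresholds, and do not say how input and replicates entered the calls. Input libraries have no peak list among the files analysed. The combined list and the replicate lists come from different programs, which can itself make them differ.

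Samples were grouped by title, and peaks of the 6 nuclear chromosomes were used, the peaks of each replicate were put in order of score (ties by peak number), and overlap required 1 shared bp. Each chromosome was taken to end at the largest peak end in any list. Intervals on shares are exact (Clopper-Pearson, 95%) and hold counting error alone; read depth is unknown. Tests were two-sided, with Benjamini-Hochberg adjustment over the 13 planned tests and within each of 3 added families (3, 8 and 5 tests). Tests ran in SciPy 1.17.1 under Python 3.11.15, with pandas 2.3.3, NumPy 2.4.6 and, for plots, matplotlib 3.10.9.

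Regions named are the 20 X regions of lowest q, the 5 widest, the 5 best ranked X peaks of each replicate without a combined region, the richest and poorest windows and the 5 largest groups; any other was chosen after its values were seen. The members, tests and lists were chosen with earlier results of these data known. Alternatives changed the overlap rule, the replicate peaks, the q and width limits, or left out chromosome I or a replicate. The gene table used here is built on WBcel235, not WS220, so no gene or sequence was assigned.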

Additional observations from a re-analysis of the deposited data

How the results depend on the processing

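Wider X regions for their q class, the gap between the libraries on X and the rise of support with strength kept their direction and passed the test under every alternative run for them; at q under 1e-10 the odds ratio for replicate 1 support has no finite value, since 30 of 30 regions had a peak. As odds ratios of X over autosomes (X groups where named), the share at least 1000 bp wide, 1.03, passed the test at 500 bp (1.75; 1.85 without chromosome I; 2.06 at q under 0.001) but not at q of 0.001 or more (1.41), and was 0.980 at q under 1e-05. Widths above the median of the whole list no longer passed at q under 0.001 (1.31) or 1e-05 (1.78). At q under 0.001, 85.0% of X and 81.3% of autosomal regions exceed that median, and at q under 1e-05, 98% and 96.5% do. Widths under 100 bp no longer passed at q under 0.001 (0, with 0 X and 2 autosomal regions). The other directions that turned round belonged to differences that did not pass the test in any setting. Replicate 2 overlap, 0.969, was 1.05 with as many replicate peaks as the combined list holds, 1.04 at q under 1e-05 and 1.12 at q under 0.001. Neighbours within 2000 bp, 1.01, gave 0.807 at q under 1e-05, 0.917 at q under 0.001, 0.972 without chromosome I, 0.962 at 1000 bp and 0.899 at 5000 bp. Without chromosome I, replicate 1 peaks of highest score gave 0.790, and replicate 1 ranks 1 to 500, 2501 to 10000 and beyond 10000 gave 0.659, 0.968 and 0.841, with 0.977 for replicate 2 ranks 501 to 2500. Overlap with both replicates ran from 0.969 to 1.14 as each replicate was left out. Support in the middle against the ends of X, 0.855 at the middle 60%, ran from 0.900 to 0.957 in the same runs. It was 0.683 with as many replicate peaks as the combined list holds, and 1.004 at q under 1e-05. At the middle 50% it was lowest, 0.639, with 24.0% against 33.1% (Fisher's exact test, adjusted p = 0.0795). For these changes the cause was not tested. No paired analysis was possible because the input libraries have no peak list among the files analysed. Read depth is unknown, so weak regions cannot be judged against it.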
